A study of Homo sapiens with 6 samples.

Results

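The expression of 10 genes of the pluripotency network, NANOG, SALL4, TFCP2L1, TERT, LIN28A, LIN28B, PRDM14, ZFP42, DPPA4 and UTF1, was examined in SW480 cells, an established line from a human colorectal adenocarcinoma. The 10 genes were taken by symbol from the 63677 identifiers of the count tables, and all 10 had an identifier there. RNA-seq was performed on 3 libraries from cells transduced with a doxycycline-inducible vector for GFP (GFP replicates 1 to 3) and 3 libraries from cells transduced with the same type of vector for POU5F1B (POU5F1B replicates 1 to 3). POU5F1B is a retrogene copy of POU5F1, the gene of the pluripotency factor OCT4, and the vector was lentiviral and added an HA tag to the protein. Cells of both groups were exposed to 1 µg/mL doxycycline for 72 h before harvest, so no library came from uninduced cells, and whether the transduced cells were a pool or a clone was not given in the sources used here. Polyadenylated RNA was sequenced. The labels name no separate cultures behind the replicates, so p-values measure only the spread between these libraries, which may be technical.

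In the pluripotent cells of the early embryo, a small circuit of transcription factors around OCT4, SOX2 and NANOG keeps its own genes active and those of the differentiated lineages low. SALL4, TFCP2L1, PRDM14 and ZFP42 (REX1) are DNA-binding proteins attached to that circuit, UTF1 and DPPA4 are chromatin-associated proteins restricted to pluripotent and germ cells, the paralogs LIN28A and LIN28B bind the precursors of the let-7 microRNAs and block their maturation, and TERT is the reverse transcriptase that maintains telomeres. Several of these genes, SALL4, LIN28A, LIN28B and TERT among them, are known to be active again in some carcinomas.

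Reference sequences that bear on these genes are shown first. Promoter windows, from 250 bases before to 50 bases after an annotated start, were taken from the RefSeq table (GRCh38.p14). They were used for 7 of the 10 members (8 windows), and no window was used for SALL4, LIN28A or PRDM14. The window of TFCP2L1, the member with the highest count, lies at chr2:121285153-121285452 on the minus strand and is printed with each GC box (GGGCGG or its reverse complement CCGCCC) in capitals. The window of NANOG, the core factor of the circuit, lies at chr12:7789152-7789451 on the plus strand and is printed with the letters TTTGCAT in capitals.
TFCP2L1 promoter: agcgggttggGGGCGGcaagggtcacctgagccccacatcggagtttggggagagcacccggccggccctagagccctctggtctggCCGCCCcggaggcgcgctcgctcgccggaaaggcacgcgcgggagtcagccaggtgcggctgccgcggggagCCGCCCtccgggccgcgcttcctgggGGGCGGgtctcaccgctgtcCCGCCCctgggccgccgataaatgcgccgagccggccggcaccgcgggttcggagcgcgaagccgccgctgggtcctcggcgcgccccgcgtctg
NANOG promoter: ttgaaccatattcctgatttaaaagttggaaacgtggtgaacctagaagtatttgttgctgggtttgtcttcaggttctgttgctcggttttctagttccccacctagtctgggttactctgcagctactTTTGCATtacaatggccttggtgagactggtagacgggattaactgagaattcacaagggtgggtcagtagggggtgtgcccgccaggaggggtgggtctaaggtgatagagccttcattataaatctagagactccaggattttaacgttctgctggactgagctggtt

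The TFCP2L1 window had a GC content of 77.3% and held 5 GC boxes, a letter string present on either strand in 45.0% of the 35116 windows of the table and in 6 member windows, those of DPPA4, LIN28B, TERT, TFCP2L1, UTF1 and ZFP42. The octamer ATGCAAAT (reverse complement ATTTGCAT), the letters read by POU-class factors, was in 1.77% of all windows and in 0 of the 8 member windows. Its first 7 letters, ATGCAAA (reverse complement TTTGCAT), a string chosen after the NANOG window had been seen and contained in the octamer, were in 4.46% of all windows and, among the members, once in NANOG, 120 bases upstream of the start. The E-box CACGTG was in 7.26% of all windows and in 1 window each of TERT and LIN28B. These matches describe letters only, and no binding was measured in these libraries. The paper reported that POU5F1B was mainly cytoplasmic and enriched in membranes in SW480 cells overexpressing it. Its chromatin immunoprecipitation, which it did not illustrate, found no significant recruitment of POU5F1B to the genome.

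The other sequences are those of let-7, the known substrate of LIN28A and LIN28B, shown because LIN28A had the most uneven counts of all members. The table held 11 let-7 hairpins, which give 8 different mature sequences of the 5p arm, and all 8 share the seed GAGGUAG at bases 2 to 8, in capitals in the mature sequence. LIN28 proteins are known to contact a GGAG in the terminal part of the hairpin, and these letters stood between the arms in 9 of the 11 hairpins, in capitals below for let-7g and let-7a-1, and were missing there in the other two, let-7a-3 (shown) and let-7b.
let-7a-5p: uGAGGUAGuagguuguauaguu
let-7g hairpin: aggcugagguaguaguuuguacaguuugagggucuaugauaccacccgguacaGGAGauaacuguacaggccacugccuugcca
let-7a-1 hairpin: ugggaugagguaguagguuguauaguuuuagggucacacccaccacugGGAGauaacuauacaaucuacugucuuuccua
let-7a-3 hairpin: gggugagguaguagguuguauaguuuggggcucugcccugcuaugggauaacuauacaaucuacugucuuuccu

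The libraries held 10767947 to 12787637 counts. The transgene followed the labels, with 6, 5 and 1 counts of POU5F1B in GFP replicates 1 to 3 and 15027, 11393 and 1458 in POU5F1B replicates 1 to 3, so POU5F1B replicate 3 held about 121 CPM (counts scaled to a common TMM-adjusted library size) against 1180 and 1054 CPM in the other two. GFP replicate 3 stood apart from the rest and received a sample quality weight of 0.111 in limma, the lowest of the 6 libraries. The epithelial keratins KRT8 and KRT18 had 35126 counts or more in every library, and of the intestinal markers CDX2 had 158 to 445, VIL1 184 to 2420, KRT20 9 to 19 and CDX1 0 to 2 counts. Some epithelial markers moved with the groups or with GFP replicate 3: CDH1 was at 33.6, 30.1 and 72.5 CPM in GFP and 164, 158 and 98.1 CPM in POU5F1B replicates 1, 2 and 3, EPCAM at 86.6, 89.3 and 517 against 320, 330 and 252 CPM, and LGR5 had 239 and 79 counts in GFP and POU5F1B replicate 3 and 0 or 1 elsewhere. Their part in the results below was not tested. The 11 colon epithelial markers, mostly KRT8 and KRT18 by level, summed to 6057 to 8996 CPM in the GFP libraries and 7404 to 8490 CPM in the POU5F1B libraries, the 10 germ line markers to 11.5 to 19.3 and 17.9 to 23.9 CPM, the 6 fibroblast markers to 27.3 to 171 and 13.4 to 22.5 CPM, the 5 immune markers to 1.52 to 3.36 and 2.04 to 4.98 CPM and the 3 matched endothelial markers to 1.21 to 6.05 and 2.66 to 6.52 CPM. By level the germ line sum was mostly TFAP2C, at 16.7, 14.9 and 9.45 CPM in GFP replicates 1, 2 and 3. In POU5F1B replicates 1, 2 and 3 TFAP2C was at 22.6, 21.8 and 15.6 CPM, and its groups overlapped. MAEL and SYCP3 of that list, at 10 counts or fewer in any library, had lower means in POU5F1B. Of the markers, COL3A1 (fibroblast), DAZL, SOX17 and STRA8 (germ line) were at 0 in every library. COL1A1 was the largest part of the fibroblast sum in the GFP libraries but below PDGFRB in each POU5F1B library. It had a voom value of -3.22 on the log2 scale (SE 1.09, adjusted p by limma voom 0.340).

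Of the 10 members, 7 had at least 1 count and 3, LIN28B, PRDM14 and UTF1, had 0 counts in all 6 libraries. A further 3 were at the edge of detection over the 6 libraries together: NANOG with 2 counts in total, ZFP42 with 2 and DPPA4 with 3. Only TFCP2L1, SALL4, TERT and LIN28A were therefore measured above a few reads. For a count of 0 a floor of 3 counts was set, which corresponded to 0.228 to 0.278 CPM depending on the library. The 95% exact Poisson upper bound of a count of 0 was somewhat higher, at 0.280 to 0.341 CPM. Both limits, like the intervals given below, cover counting error only.

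**Figure D1:**
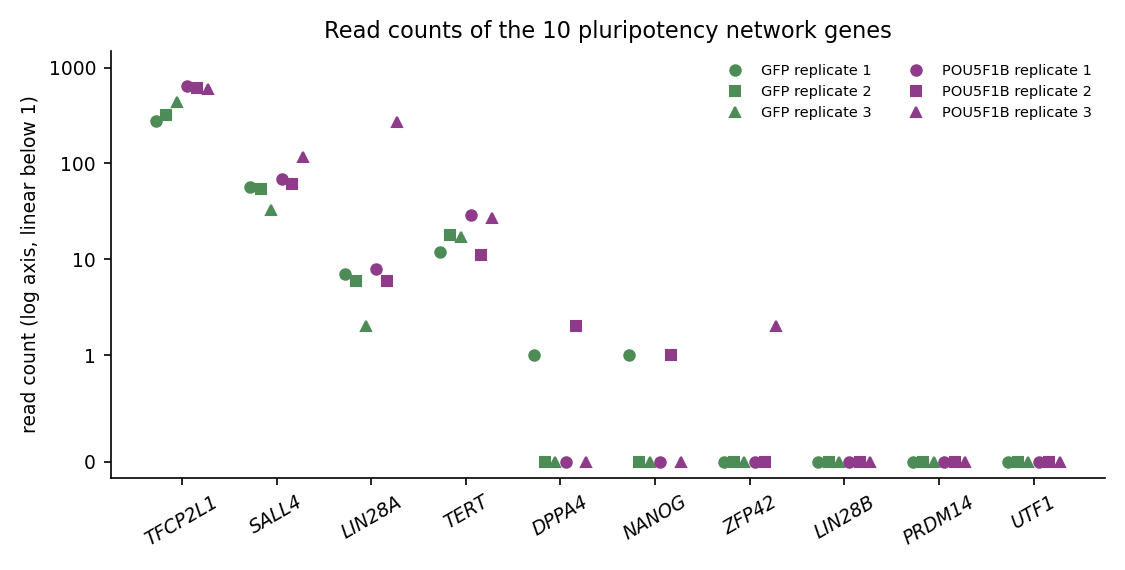
Read counts of the 10 members (logarithmic axis, linear below 1) in each library, with GFP libraries in green and POU5F1B libraries in purple and the marker giving the replicate number. TFCP2L1 lies highest, at 277 to 648 counts, LIN28A has 268 counts in POU5F1B replicate 3 against 8 or fewer elsewhere, and 6 members have 2 counts or fewer in any library.

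Per kilobase of exon, the mean level over the 6 libraries was highest for TFCP2L1 at 4.30 ± 1.51 CPM per kb (SD, n = 6). LIN28A came next at 1.03 ± 2.24, SALL4 followed at 0.939 ± 0.404 and TERT at 0.264 ± 0.0962 CPM per kb. The place of LIN28A rested on 1 library, since it was above SALL4 in 1 of 6 libraries only and its range overlapped those of SALL4 and TFCP2L1. SALL4 was above TERT in 6 of 6 libraries with no overlap, and TERT was above ZFP42, DPPA4 and NANOG, whose mean levels of 0.0104, 0.00903 and 0.00546 CPM per kb did not differ beyond their spread. TFCP2L1 held 59.0 to 89.3% of all reads counted for the 10 members, the lowest share being that of POU5F1B replicate 3, where LIN28A held 26.6%.

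The comparison of the 3 POU5F1B with the 3 GFP libraries asked whether expression of the OCT4-like retrogene went with a change in these genes. Of the 10 members, 3 had enough counts to enter the test across genes (TFCP2L1, SALL4 and TERT), and 0 of the 3 passed the threshold, an adjusted p under 0.05 and a fold change above 2 in limma voom. Over all 14286 genes tested, 0 (0.0%) passed. That count includes the transgene itself, whose POU5F1B log2 fold change of 10.73 (SE 2.78) had an adjusted p by limma voom of 0.252. The paper, which also used voom and a fold above 2, named SW480 among 3 settings that had enough upregulated genes for an annotation analysis. The fit here gave no such list, and the reason for the difference was not tested. At an unadjusted p under 0.05, 1 member (TFCP2L1, higher) was among the 1698 genes (11.9%), of which 867 (6.07% of all tested) were higher and 831 (5.82%) lower, while the quasi-likelihood test of edgeR called 0 genes past the threshold and DESeq2 called 232, no member among them. The CPM of the groups did not overlap for 2 members, TFCP2L1 and SALL4, both higher in POU5F1B, as for 1461 of all genes tested (10.2%) in that direction, 1316 (9.21%) in the other and 2777 (19.4%) in either. The median log2 fold change of the 3 tested members was 0.79, beside -0.02 for all genes tested (quartiles -0.26 and 0.20), and all 3 were above 0, as were 46.9% of all genes.

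TFCP2L1, a CP2-family transcription factor that holds mouse embryonic stem cells in the naive state and is also found in kidney and other epithelia, was the most abundant member. The gene (ENSG00000115112) lies at chr2:121974163-122042778 on the minus strand (GRCh37). GFP replicates 1, 2 and 3 had 277, 318 and 433 counts (23.3, 24.2 and 37.5 CPM) and POU5F1B replicates 1, 2 and 3 had 648, 607 and 595 counts (50.9, 56.2 and 49.4 CPM). Every POU5F1B library was above every GFP library, the closest pair being GFP replicate 3 and POU5F1B replicate 3. The GFP mean was 28.3 ± 7.98 CPM and the POU5F1B mean 52.2 ± 3.56 CPM (SD, n = 3 each), which voom put at 0.92 on the log2 scale (SE 0.20, 95% interval 0.44 to 1.40) with an adjusted p in limma of 0.210. By unadjusted p (0.00288) TFCP2L1 ranked 196 of 14286 genes. Between libraries with the same replicate number the ratio was 2.18, 2.32 and 1.32.

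The call for TFCP2L1 turned on GFP replicate 3. Without that library the log2 fold change was 1.12 and the limma voom adjusted p 0.00444, past the threshold, in a fit in which 595 of all genes (4.16%) passed. With replicates 1 and 2 of each group only, it was 1.15 with a limma voom adjusted p of 2.82e-05, beside 1194 genes (8.36%) past the threshold. Under DESeq2 with all 6 libraries the adjusted p was 0.0119 at a log2 fold change of 0.89, which is under the fold threshold.

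**Figure D2:**
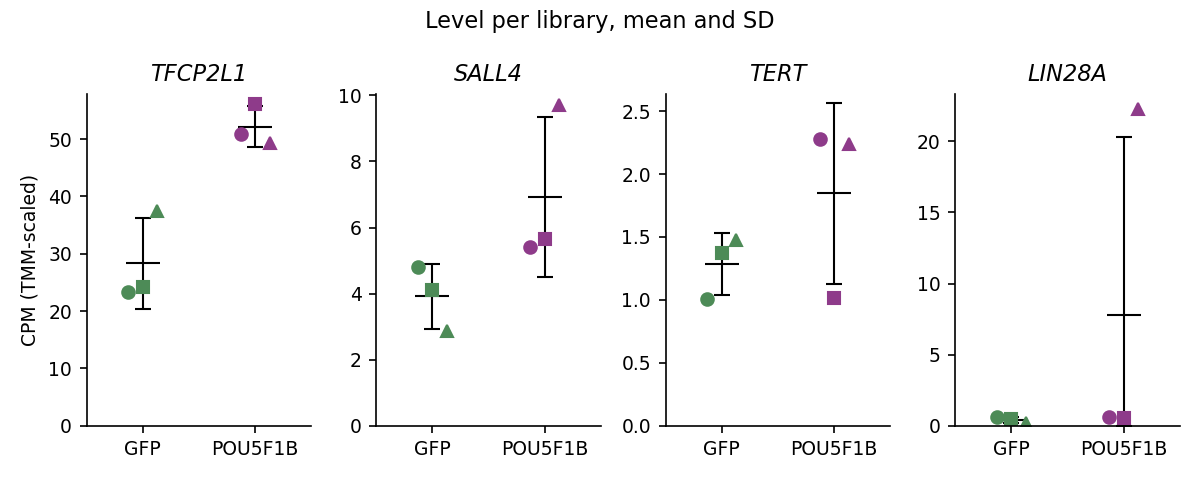
CPM (TMM-scaled library sizes, linear axes from 0, each panel with its own scale) of TFCP2L1, SALL4, TERT and LIN28A in the GFP and POU5F1B libraries; points are libraries, horizontal bars means and error bars SD (n = 3), cut at 0. TFCP2L1 and SALL4 do not overlap between groups, TERT does, and LIN28A reaches 22.3 CPM in a single library.

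Genes around TFCP2L1 on chromosome 2 had fold changes of the same sign, although none passed the threshold. Of 15 tested genes whose start lay within 2 Mb, 15 had a log2 fold change above 0 (median 0.44, range 0.06 to 1.40), and 5 had an unadjusted p under 0.05 in limma voom (11.9% of all genes tested). For 7 of them the groups did not overlap, all in that direction, beside 10.2% of all genes tested. The others overlapped, and for INHBB and PTPN4 GFP replicate 3 was the highest library of all, at 65.9 and 23.8 CPM. The nearest, NIFK-AS1 at 364 kb, had a log2 fold change of 0.24 and CLASP1, at the same distance, 0.23. The others, named after their values had been seen, included TMEM37 (1.40), INHBB (1.30, an activin subunit), TMEM185B (0.66), RALB (0.60, a small GTPase) and GLI2 (0.46, a Hedgehog effector), all on the log2 scale, and TFCP2L1 itself came after TMEM37 and INHBB in the window. Among 12606 genes with at least 10 tested neighbours, 27 (0.214%) had every neighbour higher, and 0.547% had a neighbour median as high as that of TFCP2L1. On chromosome 2 as a whole 626 of 959 tested genes (65.3%) were higher, with a median of 0.14. With replicates 1 and 2 only, 14 of the 15 neighbours were higher and their median was 0.55. What this neighbourhood contributed to the TFCP2L1 value was not tested.

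**Figure D3:**
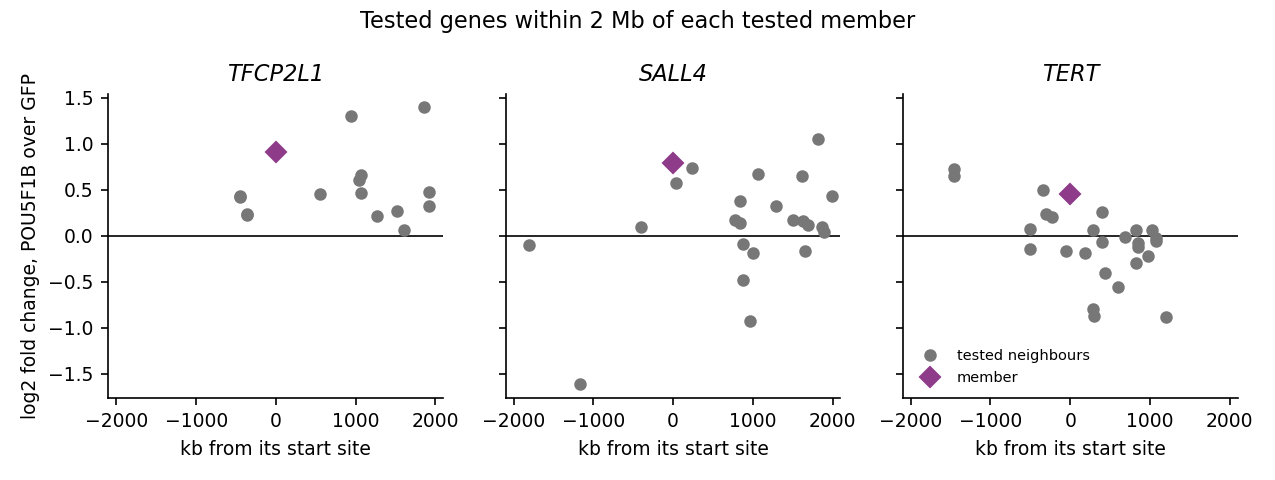
Log2 fold change (POU5F1B over GFP, limma voom) of tested genes within 2 Mb of TFCP2L1, SALL4 and TERT, against the distance between start sites in kb, counted in the direction of the member's transcription; diamonds mark the members. All 15 neighbours of TFCP2L1 lie above 0, against 16 of 23 for SALL4 and 10 of 26 for TERT.

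The other CP2 and grainyhead genes, relatives of TFCP2L1, gave no call. Of 5 listed, 4 were tested, 0 passed the threshold and the median log2 fold change was 0.42. The closest relatives, TFCP2 and UBP1, were expressed at 16.5 and 16.8 CPM per kb and had log2 fold changes of 0.03 (SE 0.10) and -0.06 (SE 0.10). GRHL1, an epithelial grainyhead factor, stood at 7.65, 8.90 and 12.9 CPM in GFP replicates and 20.1, 20.3 and 12.5 CPM in those of POU5F1B, with overlapping groups and a voom log2 difference of 0.84 (SE 0.29, adjusted p by limma voom 0.349), and GRHL3 had 0.81 (SE 0.52).

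SALL4, a zinc finger factor that interacts with OCT4 and NANOG and recruits the NuRD corepressor, lies at chr20:50398870-50419060 on the minus strand (ENSG00000101115). Its counts were 57, 54 and 33 in GFP replicates 1, 2 and 3 and 69, 61 and 117 in POU5F1B replicates 1, 2 and 3 (4.79, 4.11 and 2.86 against 5.42, 5.64 and 9.72 CPM). The groups did not overlap, but the lowest POU5F1B and the highest GFP library were close, and the gap between the groups came largely from the third libraries, of which GFP replicate 3 was the lowest and POU5F1B replicate 3 the highest of all 6. The means were 3.92 ± 0.980 and 6.93 ± 2.42 CPM (SD, n = 3 each), a log2 fold change of 0.79 (SE 0.33, 95% interval -0.01 to 1.59; adjusted p by limma voom 0.424). Counting error alone gave 95% exact Poisson intervals of 3.63 to 6.21 CPM in GFP replicate 1 and 4.22 to 6.86 CPM in POU5F1B replicate 1, which overlap. With replicates 1 and 2 only, the log2 fold change was 0.31, and without POU5F1B replicate 3 it was 0.53.

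Around SALL4, 16 of 23 tested neighbours were higher in POU5F1B (median log2 fold change 0.14), and the nearest, ATP9A at 34.1 kb, had 0.58. The groups did not overlap for 7 of the 23 in the higher and 2 in the lower direction, beside 10.2% and 9.21% of all genes tested. In limma voom, 6 of the 23 had an unadjusted p under 0.05, beside 11.9% of all genes tested. Of the 16 other SALL and NuRD genes, 14 were tested, 0 passed and the median was -0.02. SALL1 was at 0 in every library and SALL3 had 1 count at most. Among the NuRD subunits, MTA1 was at 132, 129 and 116 CPM in the GFP and at 91.6, 77.1 and 101 CPM in the POU5F1B libraries (log2 fold change -0.49 with an SE of 0.14; adjusted p by limma voom 0.280). For MTA3 the log2 fold change was 0.38 (SE 0.14; adjusted p by limma voom 0.356) and for MBD3 -0.38 (SE 0.24), and the most abundant subunits per length, RBBP7 and MTA2, had 0.16 (SE 0.10) and 0.12 (SE 0.09). Both stood far above SALL4 per length, at 60.9 and 55.3 CPM per kb against 0.939.

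TERT, the catalytic subunit of telomerase, lies at chr5:1253262-1295183 on the minus strand (ENSG00000164362). Its counts were 12, 18 and 17 in GFP replicates 1, 2 and 3 and 29, 11 and 27 in POU5F1B replicates 1, 2 and 3, or 1.01, 1.37 and 1.47 against 2.28, 1.02 and 2.24 CPM. Replicates 1 and 3 of POU5F1B were the highest libraries, but replicate 2 was level with the lowest GFP library, so the groups overlapped. The log2 fold change was 0.46 (SE 0.41, 95% interval -0.52 to 1.44; adjusted p by limma voom 0.687), an interval that holds both no difference and a fold above 2.

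Of 15 other telomerase and shelterin genes, 14 were tested, 0 passed the threshold and the median log2 fold change was 0.12. The H/ACA ribonucleoprotein genes that hold the telomerase RNA were the most abundant per length, NHP2 at 90.0 and DKC1 at 34.8 CPM per kb, with log2 fold changes of -0.17 (SE 0.12) and 0.21 (SE 0.17). GAR1, of the same particle, was at 34.9, 34.1 and 45.7 CPM in the GFP and at 70.8, 68.8 and 61.4 CPM in the POU5F1B libraries. Its groups did not overlap, as for 10.2% of all genes tested in that direction. The difference of 0.82 on the log2 scale (SE 0.16) had an adjusted p by limma voom of 0.195. TEP1, a telomerase-associated protein, had 0.51 (SE 0.18; adjusted p by limma voom 0.351) and ACD, the shelterin subunit TPP1, 0.27 (SE 0.16). TERC, the telomerase RNA, is not polyadenylated in its mature form and had 1 to 10 counts.

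LIN28A had the most uneven counts of the 10 members. The gene (ENSG00000131914, chr1:26737308-26756219, plus strand) had 7, 6 and 2 counts in GFP replicates 1, 2 and 3 and 8, 6 and 268 counts in POU5F1B replicates 1, 2 and 3. These counts are 0.589, 0.456 and 0.173 CPM in GFP and 0.628, 0.555 and 22.3 CPM in the POU5F1B libraries, the last with a 95% exact Poisson interval of 19.7 to 25.1 CPM. POU5F1B replicate 3 was thus 35.4 times the highest other library, while the other two POU5F1B libraries, at a mean of 0.592 CPM, lay among the GFP libraries. The groups overlapped, with means of 0.406 ± 0.212 and 7.81 ± 12.5 CPM (SD, n = 3 each), and the exact two-sided permutation test on log2(CPM + 0.5) gave p = 0.20, where the smallest p that 3 against 3 libraries allow is 0.10. The library with the high LIN28A count was the POU5F1B library with the fewest transgene counts.

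Across all genes, such a pattern was rare in that library. Of 11394 genes with at least 50 counts in POU5F1B replicate 3, 2 (0.0176%) were at least 8 times the highest other library, LIN28A and GRIA1 (a glutamate receptor subunit, 4, 1 and 0 counts in GFP and 1, 0 and 65 in POU5F1B replicates), a screen and limits chosen after the LIN28A counts had been seen. The same limits gave 20 genes in GFP replicate 3, 1 in POU5F1B replicate 2 and 0 in the other three libraries. The processed copies LIN28AP1 and LIN28AP2 had 0 counts in every library, and 2.22% of the 50-base windows of LIN28A transcripts occurred in transcripts of another gene.

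The genes that act with LIN28A, downstream of it or on let-7 did not pass the threshold. All 18 listed were tested, 0 passed and the median log2 fold change was 0.03. At an unadjusted p under 0.05 in limma voom, 1 was higher and 1 lower, beside 6.07% and 5.82% of all genes tested. HMGA2, a chromatin protein and a classical let-7 target, was at 105, 102 and 91.6 CPM in the GFP and at 79.6, 78.7 and 69.3 CPM in the POU5F1B libraries. Its groups did not overlap, as for 9.21% of all genes tested in that direction, and its log2 fold change was -0.39 (SE 0.12, adjusted p by limma voom 0.304). ARID3B, another target, had 0.45 (SE 0.17; adjusted p by limma voom 0.364) and HMGA1 0.25 (SE 0.13; adjusted p by limma voom 0.497). IGF2BP2, among the most abundant per length with HMGA1, had -0.09 (SE 0.23). The ubiquitin ligase gene TRIM71, itself a let-7 target and named after its values had been seen, had 108, 112 and 35 counts in GFP and 94, 98 and 248 counts in POU5F1B replicates 1, 2 and 3. TRIM71, like SALL4, was thus highest in POU5F1B replicate 3 and lowest in GFP replicate 3, the library that stood apart from the rest. LIN28A was also highest in POU5F1B replicate 3, but its 2 counts in GFP replicate 3 are too few to rank that library. The share of all genes with this order was not counted, and a link between these genes was not tested. The let-7 hairpin genes had at most 62 counts over all 6 libraries, and mature microRNAs are not captured in polyadenylated RNA, so let-7 itself was not measured.

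NANOG, the core factor whose promoter is shown above, had 1 count in GFP replicate 1, 1 in POU5F1B replicate 2 and 0 in the other four libraries. The 2 reads do not separate the groups (exact two-sided permutation p = 1.0), and 28.0% of the 50-base windows of its transcripts occur in other genes, most often NANOGP8, so that even these reads are uncertain. Of the 13 NANOG copies and relatives, 9 were at 0 throughout, and the processed copy NANOGP8 had 1, 5 and 0 counts in GFP and 1, 2 and 1 counts in POU5F1B libraries. The one that could be tested was the duplicated copy NANOGP1, at 17, 28 and 3 counts in GFP and 17, 21 and 18 counts in POU5F1B replicates 1, 2 and 3 (log2 fold change 0.67 with an SE of 0.70; adjusted p by limma voom 0.734). Its groups overlapped and its lowest library was GFP replicate 3.

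The remaining members had 3 counts or fewer in all 6 libraries together. ZFP42 (REX1) had 2 counts in POU5F1B replicate 3 and 0 elsewhere, and DPPA4 had 1 count in GFP replicate 1 and 2 in POU5F1B replicate 2 (exact two-sided permutation p = 1.0 for each). LIN28B, PRDM14 and UTF1 had 0 counts in every library of both groups. For LIN28B the opposite-strand genes LIN28B-AS1 and RNU6-1106P, which overlap it, were at 0 too. For a library at 0 the limits given above apply, and the 2 counts of ZFP42 and of DPPA4 have 95% exact Poisson upper bounds of at most 0.669 CPM.

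Other PRDM genes, relatives of PRDM14, were expressed. Of 15 listed with the PRDM14 partner CBFA2T2 among them, 8 were tested, 0 passed the threshold and the median log2 fold change was 0.03. PRDM1 (BLIMP1), a repressor that acts in germ cell and B-lymphocyte differentiation, was at 456, 391 and 439 counts in GFP and 141, 109 and 224 counts in POU5F1B replicates 1, 2 and 3. Every POU5F1B library was below every GFP library, as for 9.21% of all genes tested. The log2 fold change of PRDM1 was -1.45 (SE 0.26, adjusted p by limma voom 0.185). PRDM16 had 24, 31 and 27 counts in GFP and 55, 53 and 55 in POU5F1B cells. Its groups did not overlap in CPM either, as for 10.2% of all genes tested in that direction, and its log2 fold change was 1.02 (SE 0.23, adjusted p by limma voom 0.220). For PRDM15 the value was 0.29 (SE 0.20), and for PRDM4 and CBFA2T2, the most abundant per length, -0.08 (SE 0.16) and 0.10 (SE 0.12). In the germ line list the tested gene was TFAP2C, a germ cell specifier, at 0.56 on the log2 scale (SE 0.27; adjusted p by limma voom 0.472).

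The wider pluripotency list held 30 further genes, of which 7 were at 0 in every library, 13 had counts but too few to test and 10 were tested. None of the 10 passed the threshold in limma voom or edgeR. DESeq2 called 2 of them, KLF2 and POU5F1, and 232 of all 14286 genes (1.62%). At an unadjusted p under 0.05 in limma voom, 2 were higher, KLF2 and POU5F1, and 0 lower (6.07% and 5.82% of all genes tested). POU5F1, at 5 counts or fewer in each GFP library, passed the filter only through the POU5F1B libraries. Its reads are uncertain, as given below, so it cannot be set against these shares. The median log2 fold change of the 10, POU5F1 included, was -0.14. KLF2, a naive-state factor, was at 52, 38 and 26 counts in GFP and 170, 135 and 117 counts in POU5F1B replicates 1, 2 and 3. Its groups did not overlap, as for 10.2% of all genes tested in that direction. The means were 3.17 ± 1.09 in GFP and 11.9 ± 1.90 CPM in POU5F1B (SD, n = 3 each). The difference was 1.93 on the log2 scale (SE 0.29, adjusted p by limma voom 0.185). POU5F1 had 0, 4 and 5 counts in GFP and 217, 159 and 18 counts in POU5F1B replicates 1, 2 and 3 (log2 fold change 5.25 with an SE of 1.62; adjusted p by limma voom 0.308). These POU5F1 reads were 1.44, 1.40 and 1.23% of the transgene counts in the same libraries, and since the sequences are near-identical, the POU5F1 counts are uncertain. Whether they are reads of the transgene was not tested.

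**Figure D4:**
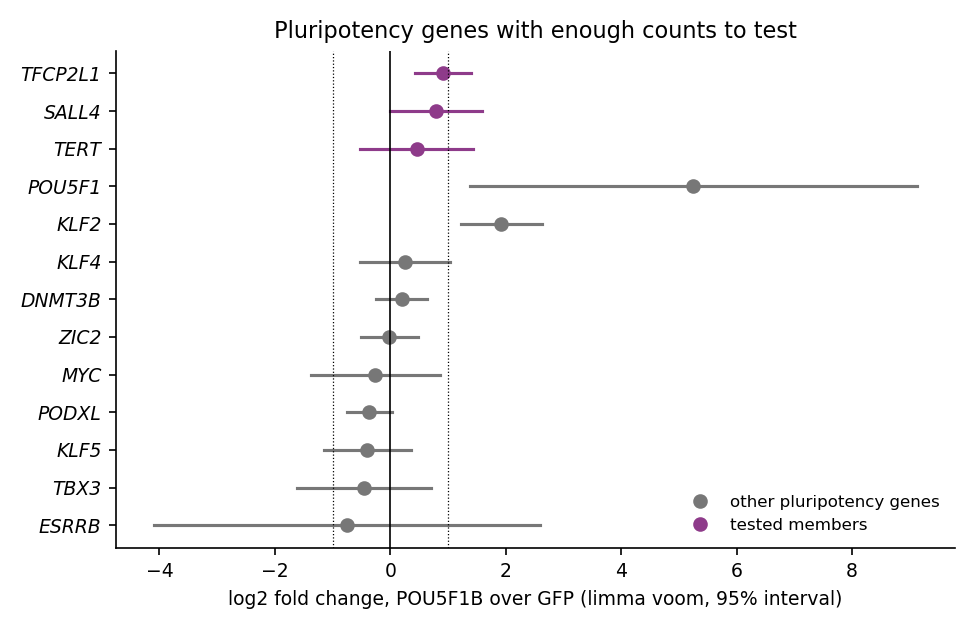
Log2 fold change (POU5F1B over GFP, limma voom) with its 95% interval for the 3 tested members (purple) and the 10 tested genes of the wider pluripotency list (grey); dotted lines mark a fold of 2. The intervals of TFCP2L1, KLF2 and POU5F1 lie above 0, the POU5F1 reads being uncertain beside the transgene.

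Among the reprogramming factors, KLF4 had 273, 280 and 114 counts in GFP and 255, 201 and 269 in POU5F1B replicates 1, 2 and 3 (log2 fold change 0.25 with an SE of 0.33; adjusted p by limma voom 0.795). MYC, the most abundant gene of the list per length at 54.1 CPM per kb, had 8173 counts in GFP replicate 3 against 2330 to 4251 in the other five libraries, and a log2 fold change of -0.26 (SE 0.47). KLF5 followed at 29.9 CPM per kb and had -0.40 (SE 0.32), and PODXL, a cell surface sialomucin, -0.37 (SE 0.16; adjusted p by limma voom 0.437). SOX2, the partner of OCT4, was low and stood highest in replicate 3 of both groups. It had 9, 2 and 72 counts in GFP and 2, 1 and 36 counts in POU5F1B replicates 1, 2 and 3. ESRRB, named after its values had been seen, had 9, 12 and 155 counts in GFP and 6, 6 and 77 in POU5F1B cells. Both were at least 3 times higher in the 2 libraries with replicate number 3, GFP and POU5F1B alike, than in any other library. Of the 14286 tested genes, ESRRB included, 62 (0.434%) had this pattern.

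Over the 6 libraries, the genes most like TFCP2L1 by Pearson r of log2 CPM were CDC25A (0.996), CRYBA2 (0.996) and DUSP11 (0.995), the latter 2 also on chromosome 2, and 174 genes exceeded an r of 0.95. The genes most like SALL4 were POLDIP2 (0.990), KRBOX4 (0.990) and LRRC3 (0.986), with 16 above that limit, and those most like TERT were FAM3A (0.975), INPP5E (0.973) and ANO7 (0.968), with 9. These likenesses rest on 6 points that share their libraries and their 2 groups and are given as a description.

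Across the 16 other settings tried, the log2 fold changes of the 3 tested members kept their sign. TFCP2L1 ranged from 0.80 to 1.15, SALL4 from 0.31 to 0.95 and TERT from 0.26 to 0.81. TFCP2L1 passed the threshold in 3 settings, with sample quality weights (1.11, adjusted p by limma voom 0.000438), without GFP replicate 3 and with replicates 1 and 2 only, all of which lower or remove the weight of GFP replicate 3, and SALL4 and TERT passed in none.

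**Figure D5:**
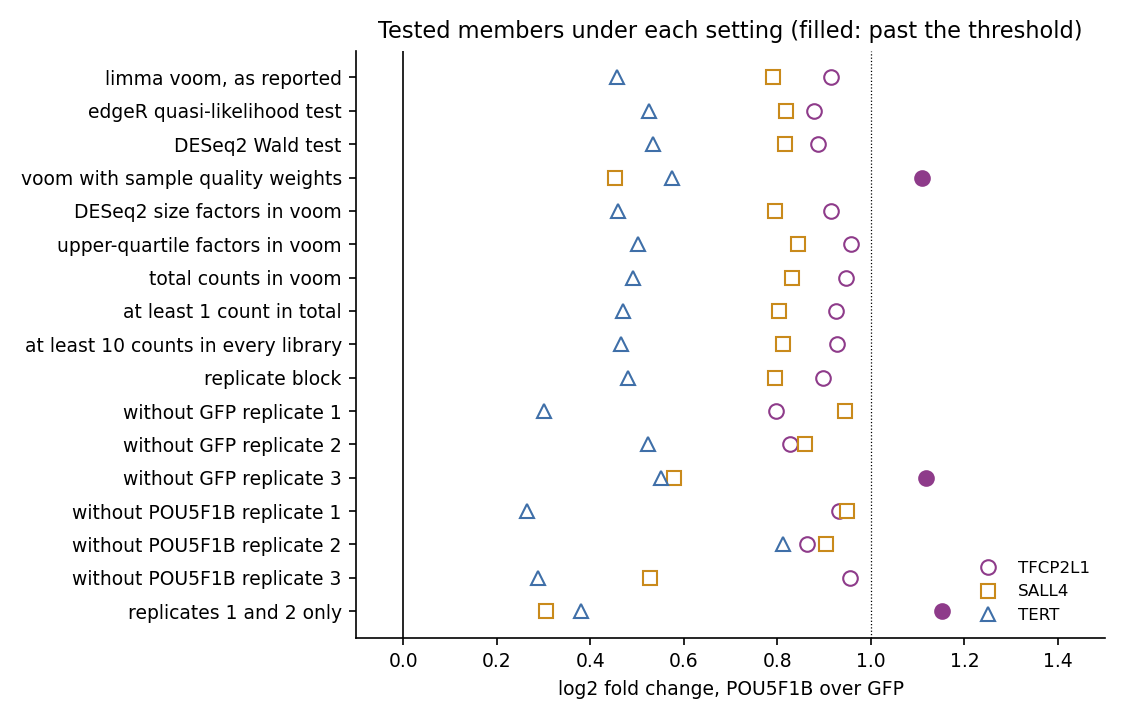
Log2 fold change (POU5F1B over GFP) of TFCP2L1, SALL4 and TERT under the reported fit and each of the 16 alternatives; filled markers are past the threshold (adjusted p under 0.05 and fold above 2), and the dotted line marks a fold of 2. Only TFCP2L1 is filled, in 3 settings, and every marker lies above 0.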

How the data were processed

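The authors deposited raw counts, 1 table per library with a whole-number read count per Ensembl identifier and no normalization. Per the labels and the study's methods, reads of stranded poly(A) libraries were aligned to hg19 with hisat2 2.1.0 and uniquely mapped reads were counted with featureCounts of subread 1.5.2. The annotation release and the strand setting of the counting were not given in the sources used here. Libraries were assigned to groups by their titles. Members were matched by identifier and symbol, and exon lengths and GRCh37 coordinates came from GENCODE.

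Low-count genes were removed by filterByExpr in edgeR 4.0.16, library sizes were scaled by TMM, and groups were compared by voom and limma 3.58.1 in R 4.3.3, as the study's methods state, with Benjamini-Hochberg adjustment over 14286 genes and without a replicate block. The quasi-likelihood test of edgeR and DESeq2 1.42.0 were alternatives, as were other scalings, filters, sample quality weights and leaving out libraries. The scripts were tested on simulated data. Members left out by the filter were compared by exact two-sided permutation of log2(CPM + 0.5). Total counts of 10767947 to 12787637 set the precision, and 1 to 3 counts give no usable comparison.

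The members and the gene lists were chosen with earlier results of these data known. Named were all members, the transgene and POU5F1, SOX2, KLF4 and MYC, from each list the 3 tested genes with the smallest unadjusted p and the 2 most abundant per length, and the 3 genes most correlated with each tested member; any other gene, including TERC, SALL1, SALL3, CDX1, NANOGP8, the LIN28A copies and the list genes at 0, was chosen after its values were seen. For the marker lists these were COL1A1 and PDGFRB (log2 fold changes -3.22 and -0.95), LYZ (1.06), VWF (0.35), and CDH1, EPCAM, KRT8 and KRT18 (1.71, 0.92, 0.10 and 0.17), none past the threshold.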

Additional observations from a re-analysis of the deposited data

How the results depend on the processing

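The median log2 fold change of the 3 tested members stayed above 0 under all 16 alternatives (0.53 to 0.93 when single libraries were left out, 0.38 with replicates 1 and 2 only against 0.79 as reported), and no log2 fold change of a member or of POU5F1B or POU5F1 changed sign. The number of members past the threshold was 0 in the reported fit and 1 (TFCP2L1) with sample quality weights and with replicates 1 and 2 only, and ranged from 0 to 1 when single libraries were left out. All genes past the threshold, 0 in the reported fit, were 232 with DESeq2, 1077 with sample quality weights, 4 with genes of at least 1 count in total, 1194 with replicates 1 and 2 only and from 0 to 595 with single libraries left out, 595 without GFP replicate 3 and 5 without POU5F1B replicate 3. The wider pluripotency genes past the threshold were 2 with DESeq2, with quality weights and with replicates 1 and 2 only (POU5F1 and KLF2, higher), and from 0 to 2 with single libraries left out (KLF2 higher and TBX3 lower without GFP replicate 3). Only the fit without GFP replicate 3 changed that library alone. The quality weights (0.575 for POU5F1B replicate 3) and the fit on replicates 1 and 2 also lowered or removed POU5F1B replicate 3. DESeq2 used all 6 libraries. The cause of these moves was not tested. With a replicate block 1 gene passed, POU5F1B itself (adjusted p by limma voom 0.0275), and no member, with log2 fold changes of 0.90, 0.80 and 0.48 for TFCP2L1, SALL4 and TERT. Deviations from the group means correlated across genes by 0.242, 0.0883 and 0.165 for replicates 1, 2 and 3. No correlation between libraries with different numbers was computed, so these values cannot decide whether the numbers pair the libraries. The reported fit treated the libraries as unpaired. Without a filter on low counts LIN28A stood at 2.37 on the log2 scale (SE 1.59; adjusted p by limma voom 0.732). TERT rests on 11 to 29 counts per library, and the effect of depth on its call was not tested.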

Other observations

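NODAL, a TGF-beta family ligand that sustains primed pluripotency, and TDGF1 (CRIPTO), its co-receptor, belong to the wider pluripotency list but had too few counts to enter the test across genes, and both are named here after their values had been seen. NODAL had 3, 4 and 2 counts in GFP and 14, 10 and 6 counts in POU5F1B replicates 1, 2 and 3. TDGF1 had 4, 5 and 6 counts in GFP and 11, 7 and 11 counts in POU5F1B replicates 1, 2 and 3. For each gene every POU5F1B library was above every GFP library. That separation by itself sets the exact two-sided permutation p on log2(CPM + 0.5) at 0.10, the smallest that 3 against 3 libraries allow. Since both genes were picked with their values known, this p is no test of them. Among all genes tested, 10.2% separated in that direction, and the share among low-count genes was not counted. LEFTY1 and LEFTY2, antagonists and known targets of this ligand, were at 0 in every library. MYCN, chosen likewise, had 8, 6 and 5 counts in GFP and 34, 40 and 3 counts in POU5F1B replicates 1, 2 and 3. Its groups overlapped because of POU5F1B replicate 3 (exact two-sided permutation p = 0.4 on log2(CPM + 0.5)). A relation of MYCN to the transgene level was not tested.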
